A study of Mus musculus with 8 samples.

Results

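The replication-dependent histone genes of the mouse were examined in regulatory T cells (Treg) for the repressive histone mark H3K9me2 and for open chromatin. They were taken as the protein-coding RefSeq genes on chromosomes 3, 11 and 13 whose symbols, current or older, carry the Hist1, Hist2 or Hist3 names or the newer H1f, H2ac, H2bc, H3c and H4c names. The rule gave 66 of 21887 protein-coding genes, 63 by the current symbol and 3 only by an older one (H2bu2, H2aw and H4bc24). Of these, 54 lie on chromosome 13, 10 on chromosome 3 and 2 on chromosome 11. They comprise 6 genes for the linker histone H1, 18 for H2A, 18 for H2B, 12 for H3 and 12 for H4. H4bc24, whose older symbol is an H2B name, was counted with H2B.

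Tumour-infiltrating Treg gave 6 libraries of H3K9me2 by CUT&RUN, a method that cuts out the DNA around an antibody-bound mark with a tethered nuclease. Of these, 3 came from mice whose Treg lack Jmjd1c by conditional knockout (labelled JMJD1CTregcKO, here cKO) and 3 from mice labelled JMJD1CWT (WT). Accessible DNA was mapped by ATAC-seq, which inserts adapters with a transposase, in 1 library of tumour Treg and 1 of spleen Treg, both labelled JMJD1CWT. All mice were C57BL/6 and 8 to 12 weeks old. No Cre driver, tumour model or number of mice per library was found in the labels, so p-values measure only the spread between these libraries. Jmjd1c encodes a Jumonji-domain protein of a family known for removing methyl groups from H3K9.

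Replication-dependent histone genes supply the histones that package newly made DNA. They are transcribed in S phase, lie in clusters that gather at the histone locus body around the coactivator Npat, and make short intronless mRNAs that end in a stem-loop instead of a poly(A) tail. Many H2A and H2B genes lie head to head and share 1 promoter. H3K9me2 is a mark of silent, late-replicating chromatin, and active histone promoters are open.

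Promoter sequences from RefSeq (GRCm38.p6, the mm10 assembly), 300 bases each with 250 before and 50 after the start, were found for 61 of the 66 genes, as 62 windows since H2bc6 has 2 starts. The 5 sequences below are printed for the following reasons. H2bc12, H1f4 and H1f5, counted with 5 kb on both sides, had more H3K9me2 coverage in every cKO library than in any WT library. H2bc1 is a testis gene with H3K9me2 peaks in both genotypes, and H2bc23 lies in a duplicated stretch with neither peak type. An H3K9me2 peak touched the printed window of H2bc12 in cKO replicate 2 alone, and those of H1f4 and H1f5 in no library. The 5 sequences lie on chromosome 13, H2bc12 at chr13:22035571-22035870 (plus strand), H1f4 at chr13:23622509-23622808 (minus), H1f5 at chr13:21780576-21780875 (minus), H2bc1 at chr13:23934107-23934406 (minus) and H2bc23 at chr13:21810150-21810449 (minus). Capitals mark, on either strand, TATAAA (the TATA box, TTTATA on the other strand), CCAAT (the site of the factor NF-Y, ATTGG on the other strand), ATTTGCAT (the octamer bound by POU factors) and AAACACA (the H1 box, TGTGTTT on the other strand).
H2bc12: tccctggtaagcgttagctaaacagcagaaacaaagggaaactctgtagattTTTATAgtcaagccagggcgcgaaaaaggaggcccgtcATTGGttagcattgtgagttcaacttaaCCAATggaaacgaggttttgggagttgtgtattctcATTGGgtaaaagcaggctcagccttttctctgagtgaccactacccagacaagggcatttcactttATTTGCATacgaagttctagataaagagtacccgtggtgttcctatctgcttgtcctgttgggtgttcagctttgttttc
H1f4: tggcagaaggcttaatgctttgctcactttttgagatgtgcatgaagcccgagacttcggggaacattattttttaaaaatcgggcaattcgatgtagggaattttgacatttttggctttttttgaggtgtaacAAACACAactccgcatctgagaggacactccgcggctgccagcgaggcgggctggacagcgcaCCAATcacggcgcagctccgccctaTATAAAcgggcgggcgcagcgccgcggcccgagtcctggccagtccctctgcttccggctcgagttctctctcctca
H1f5: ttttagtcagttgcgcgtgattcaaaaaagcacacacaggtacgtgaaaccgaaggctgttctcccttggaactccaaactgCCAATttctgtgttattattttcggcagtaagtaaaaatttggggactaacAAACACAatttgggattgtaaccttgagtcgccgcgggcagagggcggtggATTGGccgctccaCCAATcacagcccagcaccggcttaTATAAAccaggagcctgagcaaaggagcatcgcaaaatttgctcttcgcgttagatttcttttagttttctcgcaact
H2bc1: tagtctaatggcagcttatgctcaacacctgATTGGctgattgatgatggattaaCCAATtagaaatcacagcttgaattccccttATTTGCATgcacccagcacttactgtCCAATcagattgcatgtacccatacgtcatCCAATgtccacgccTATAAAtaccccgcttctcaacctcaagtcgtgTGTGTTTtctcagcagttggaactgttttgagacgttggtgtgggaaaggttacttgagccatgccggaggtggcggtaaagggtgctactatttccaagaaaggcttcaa
H2bc23: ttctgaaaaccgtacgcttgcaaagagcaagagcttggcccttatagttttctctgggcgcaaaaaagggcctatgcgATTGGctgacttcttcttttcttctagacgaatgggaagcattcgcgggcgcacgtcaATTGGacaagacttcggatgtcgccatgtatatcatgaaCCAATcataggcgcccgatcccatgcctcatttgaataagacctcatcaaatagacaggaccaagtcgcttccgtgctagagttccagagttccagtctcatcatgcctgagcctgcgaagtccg

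These short elements occurred in a larger share of the histone windows than of all promoter windows. TATAAA was in 35 of the 62 histone windows (56.5%) and in 12.6% of the 21263 windows of protein-coding genes. CCAAT was in 54 windows (87.1%), against 38.2% of all windows. Every H1, H2A, H2B and H3 window held it, and 3 of 11 H4 windows did. The octamer was in 14 windows (22.6%), against 1.66% of all windows, 7 of H2A genes and 7 of H2B genes, with none in an H1, H3 or H4 window. The H1 box was in 9 windows (14.5%), against 6.15% of all windows, and in 5 of the 6 H1 windows. Head-to-head pairs share much of a window, so these counts are not independent, and a match in letters is a description and not a binding site.

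Depth of the H3K9me2 libraries was 24774509 to 30313851 tags per the file headers, and that of the ATAC libraries 11293674 in tumour and 11068821 in spleen. The deposited H3K9me2 lists hold 24.4% to 43.9% of the peaks that their own headers count. The list of cKO replicate 1 is the longest, with 178546 peaks, against 109816 to 140678 in the other 5. Library names inside the headers differ between cKO and WT, so a batch cannot be told apart from genotype. The headers of cKO replicates 1 and 3 carry the same knockout number, so these 2 may not be independent, and n = 3 below counts libraries. Of the Treg markers Foxp3, Il2ra, Ctla4, Ikzf2, Cd4 and Cd3e, 5 of 6 had an ATAC peak within 5 kb in both tumour and spleen, while none of the 4 CD8 T and NK markers had one in either. Markers of other cells had peaks too: 1 of 3 B cell markers in both tissues (Cd79a), and 1 of 4 myeloid markers in tumour (Itgam) and 0 in spleen. Of 5 melanocyte and epithelial markers, 2 had peaks in tumour (Mlana and Pmel) and 2 in spleen (Pmel and Dct). The annotated span of Pmel contains Cdk2, so peaks of these genes cannot be told apart. Of 4 stromal and endothelial markers, 2 had peaks in tumour and 3 in spleen. Pecam1, an endothelial marker that leukocytes also express, had 7 tumour peaks and 1 spleen peak. The part of other cells in the ATAC results was not tested. Jmjd1c itself averaged 2.39% H3K9me2 coverage in cKO, against 1.70% in WT (adjusted p = 0.832 by limma), which does not check its deletion.

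H3K9me2 was measured as the covered percent, the share of a region that lies inside the H3K9me2 peaks of a library. The gene spans with 5 kb on both sides merged into 14 blocks of 357.804 kb in all. These blocks were covered to 4.57%, 5.61% and 2.83% in cKO replicates 1, 2 and 3, against 0.881%, 1.69% and 0.785% in WT replicates 1, 2 and 3. Every cKO library lay above every WT library. Means were 4.34% ± 1.41 in cKO and 1.12% ± 0.499 in WT (SD, n = 3 each), a difference of 3.22 percentage points (two-sided exact permutation p = 0.1, the smallest that 3 against 3 libraries allow). A call at 0.05 was therefore not possible. Without cKO replicate 1 the difference was 3.10 points and without cKO replicate 3 it was 3.97 points, 1 of the libraries with a shared header number being left out each time.

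Against the genome's own level, the WT blocks were low in H3K9me2 coverage. Relative to the covered percent of the whole genome, histone blocks stood at 0.882, 1.31 and 0.805 times in the cKO libraries and at 0.234, 0.428 and 0.239 times in the WT libraries (two-sided exact permutation p = 0.1, n = 3 each). Histone blocks thus had coverage near the genome's own level in cKO libraries and under it in WT libraries. The genome itself was covered to 4.33% ± 0.835 in cKO and 3.67% ± 0.348 in WT (SD, n = 3 each), with libraries of the groups overlapping (exact permutation p = 0.3). The difference depended on weak peaks. With the same number of peaks from every list, taken by score, the difference between cKO and WT blocks was 1.51 points (exact permutation p = 0.2, n = 3 each). With the stronger 50% of each list it was 0.119 points (exact permutation p = 1). No block peak scored above its list's median, so that setting left almost none and cannot compare the genotypes.

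Chromosome 13, with 291.539 of the 357.804 kb of blocks, carried most of the difference. Its 10 blocks were covered to 4.92%, 5.55% and 3.06% in the cKO libraries, against 0.738%, 1.41% and 0.621% in the WT libraries. The groups did not overlap, and the means were 4.51% ± 1.29 in cKO and 0.924% ± 0.427 in WT (SD, n = 3 each; exact permutation p = 0.1, adjusted over the 3 chromosomes 0.3). With lists of equal length this difference of 3.59 points was 1.94 points, and with the stronger 50% of each list, which left almost no block peak, it was 0.146 points.

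The 3 blocks of chromosome 3 did not separate the genotypes. They were covered to 3.0%, 5.85% and 1.39% in the cKO libraries, against 2.0%, 2.88% and 2.0% in the WT libraries (exact permutation p = 0.6, adjusted 0.6, n = 3 each). The mean difference of 1.12 points turned to -0.0960 without cKO replicate 2, to -0.792 with lists of equal length and to -1.18 over the gene spans alone. On chromosome 11 the block of H2bu2 and H2aw was covered to 3.07%, 6.14% and 3.07% in the cKO libraries, against 0, 3.07% and 0 in the WT libraries (exact permutation p = 0.3, adjusted 0.45, n = 3 each). The mean difference of 3.07 points was 21.3 over the gene spans alone, where only cKO replicate 2 had peaks. It was 1.02 with lists of equal length, 0 with the stronger 50% of each list and 2.05 without cKO replicate 2. Differences between chromosomes were not tested.

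**Figure D1:**
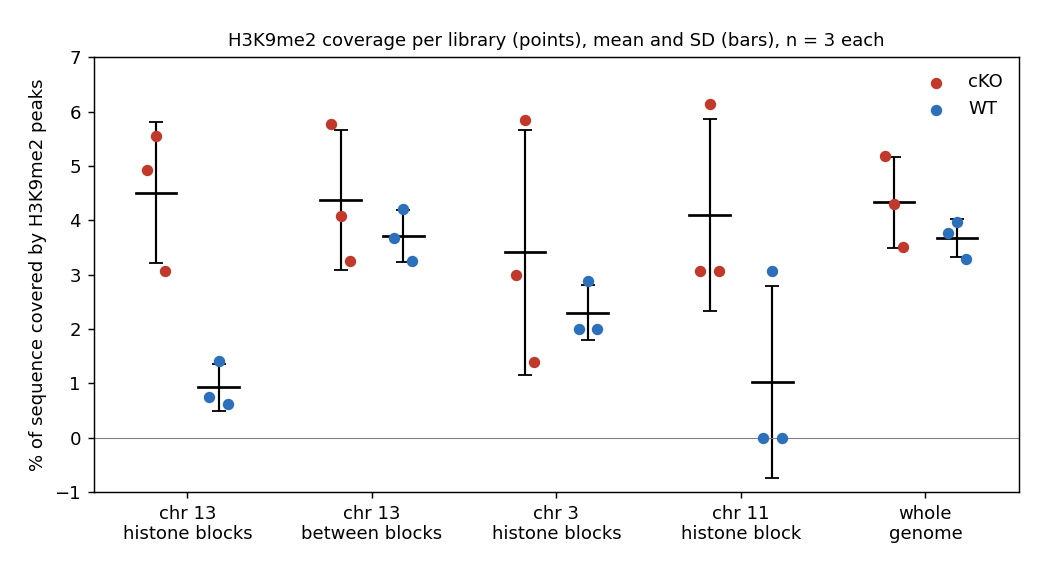
H3K9me2 covered percent (vertical axis) of the histone blocks of chromosomes 13, 3 and 11, of the chromosome 13 sequence between its blocks and of the whole genome. Each point is 1 library, cKO red and left, WT blue and right, with the mean and SD in black (n = 3 each); the cKO points of the chromosome 13 blocks, 3.06% to 5.55%, all lie above the WT points, 0.621% to 1.41%.

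The sequence between the chromosome 13 blocks served as a local comparison. Its 9 gaps, 1937.66 kb, hold 50 other genes, of which 36 are vomeronasal receptor genes of the Vmn1r family. The gaps were covered to 5.78%, 4.08% and 3.25% in the cKO libraries, against 3.67%, 4.20% and 3.24% in the WT libraries (exact permutation p = 0.6, n = 3 each). Genotypes overlapped there. This value is mostly that of 1 gap of 1477 kb, and taken singly the mean was higher in cKO in 8 of the 9 gaps. The gap between the blocks of H1f4 and H2ac6 was covered to 12.2%, 13.7% and 4.67% in the cKO libraries, against 9.88%, 5.84% and 4.52% in the WT libraries, a difference of 3.43 points (exact permutation p = 0.3, n = 3 each). The next gap, which holds Hfe, a regulator of iron uptake, differed by 2.61 points (exact permutation p = 0.2), and the gap before the H1f5 block by 5.31 points (exact permutation p = 0.4). These 3 gaps were singled out by their values. The other gaps differed by 6.59, 0.803, 1.61, 0.532, 0.690 and -1.25 points in genomic order. Single gaps thus ranged from below to above the 3.59 points of the blocks, with overlapping genotypes in each. Over the gaps together, histone blocks minus gaps came to -0.856, 1.46 and -0.192 points in the cKO libraries, against -2.93, -2.79 and -2.62 points in the WT libraries. The blocks were thus below their surroundings in every WT library and in 2 of 3 cKO libraries, and the gap between block and surroundings was smaller in every cKO library (exact permutation p = 0.1, n = 3 each, the smallest possible).

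Gene by gene, coverage at many histone genes was 0. In all 3 WT libraries 39 of the 66 genes were at 0, against 14.7% of all protein-coding genes and 46.8% of the 1516 other genes under 1000 bp. In all 3 cKO libraries 16 histone genes were at 0, against 40.4% of the other short genes, and 11 were at 0 in all 6 libraries. Coverage by called peaks was above 0 in at least 1 cKO library and in no WT library at 28 histone genes. The shares were 8.02% of all genes and 17.3% of the other short genes. The reverse held at 5 histone genes. Mean coverage was higher in cKO at 40 genes, lower at 11 and equal at 15, while it was higher at 65.6% of all genes and at 39.2% of the other short genes. The median difference, cKO minus WT, over all 66 genes was 1.60 points, beside 1.0 over all protein-coding genes and 0 over the other short genes. Neighbouring genes share flanks, so 1 peak can count for several of them. The other short genes were chosen by length alone and are not matched for open chromatin. A tumour ATAC peak lay within 5 kb of 3.89% of them, against 57 of the 66 histone genes.

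No histone gene passed the test. Of the 66, 43 reached a mean of 1% over the 6 libraries and entered limma with 19016 genes in all, and 0 had an adjusted p under 0.05 (percent called over all genes tested, 0). The lowest adjusted p of a histone gene was 0.519. Without adjustment, 9 histone genes had a p under 0.05, all higher in cKO, beside 7.43% of all genes tested (6.45% of all protein-coding genes) that were higher and 0.941% that were lower. Without overlap between the 3 cKO and 3 WT libraries, 7 histone genes were higher in cKO and none lower. That count of 7 of 66 is near the 11.4% of all protein-coding genes, while 2.51% of the other genes under 1000 bp were higher without overlap. Few of those other short genes have an ATAC peak nearby, unlike the histone genes. The 7 are not independent, since H2ac12 with H2bc12, H2ac6 with H2bc4 and H1f4 with H2bc6 share peaks. For lower coverage in cKO the shares were 1.17% of all genes and 1.32% of the other short genes.

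**Figure D2:**
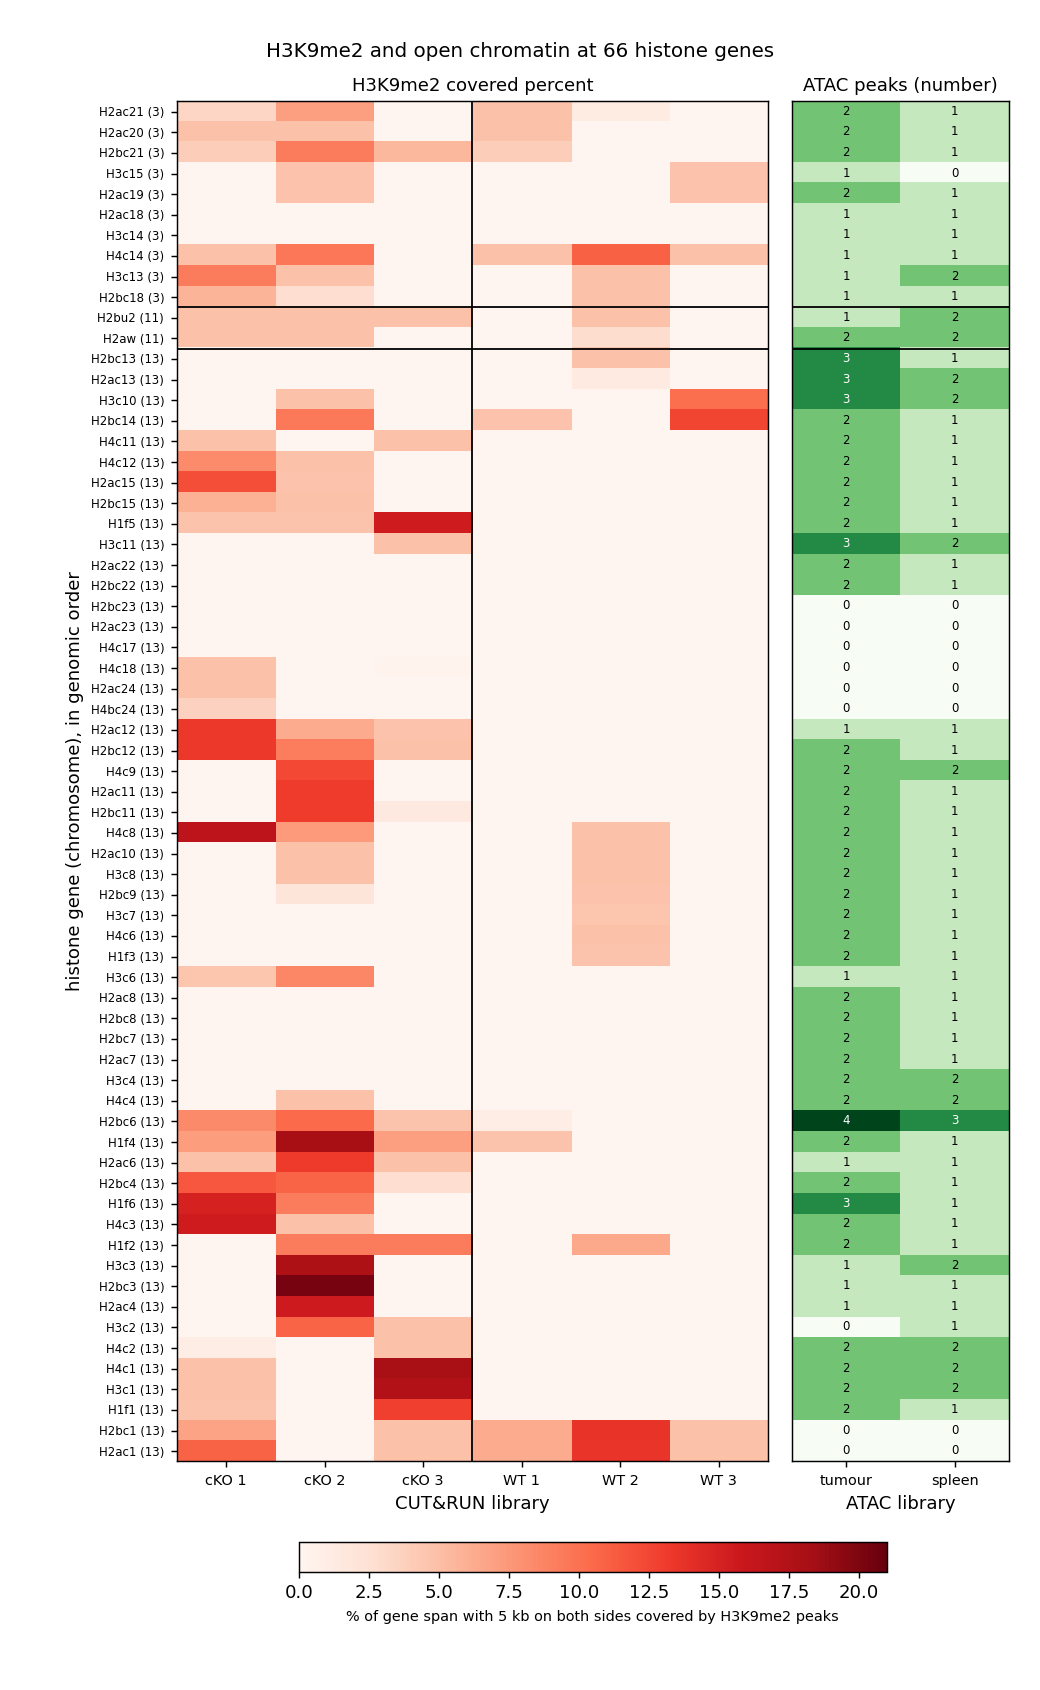
The 66 histone genes in genomic order (rows), with the H3K9me2 covered percent of each gene with 5 kb flanks in 6 libraries (left panel, cKO left of WT, colour scale in percent) and the number of ATAC peaks in the same span in tumour and spleen (right panel). WT columns are at 0 in 39 rows throughout, and 9 rows hold no tumour ATAC peak and 9 no spleen peak.

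The linker histone genes, whose products bind DNA between nucleosomes, had the highest mean of the classes in cKO. Averaged over the 6 genes the covered percent was 6.53 in cKO and 0.874 in WT, and the mean was higher in cKO at 5 of 6. H1f4 (chr13:23621777-23622558), which encodes a widely expressed H1, was covered to 7.16%, 18.1% and 7.06% in the cKO libraries, against 4.64%, 0 and 0 in the WT libraries. Groups did not overlap, and limma gave a difference of 9.23 ± 3.28 points (SE, adjusted p = 0.560). H1f5, a further somatic H1, was covered to 4.63%, 4.63% and 15.4% in the cKO libraries, against 0 in each WT library, a difference of 8.24 ± 2.92 points (SE, limma adjusted p = 0.557). It was the linker gene with no WT coverage and with a peak near it in every cKO library. Single libraries set the size of both differences, which were 5.56 points for H1f4 without cKO replicate 2 and 4.63 points for H1f5 without cKO replicate 3. Over the gene span alone the difference of H1f4 was 40.4 points, from peaks of cKO replicates 2 and 3, with none on the gene in cKO replicate 1. No H3K9me2 peak of any library lay on the span of H1f5 itself.

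The other linker genes varied between cKO libraries. H1f6, the testis linker histone H1t, was covered to 15.0%, 9.32% and 0 in the cKO libraries, against 0 in each WT library. H1f1 had 4.65%, 0 and 12.9% in the cKO libraries, against 0 in each WT library. For H1f2 the covered percent was 0, 9.32 and 9.32 in the cKO libraries, against 0, 6.46 and 0 in the WT libraries. H1f3 ran the other way, at 0 in each cKO library, against 0, 4.64% and 0 in the WT libraries. At these 4 genes the groups overlapped at 0 or above it.

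H2A and H2B form the dimer on either side of the nucleosome core, and 5 of their 36 genes were higher in every cKO library than in any WT library, a share near the 11.4% of all protein-coding genes. The 5 include neighbours that share peaks. Class means were 2.81% in cKO and 0.907% in WT for H2A, and 3.51% in cKO and 1.22% in WT for H2B. H2bc12 was covered to 13.3%, 9.25% and 4.76% in the cKO libraries, against 0 in each WT library (limma difference 9.11 ± 2.26 points, SE, adjusted p = 0.519). Its head-to-head partner H2ac12 had 13.3%, 6.27% and 4.75% in the cKO libraries, against 0 in each WT library (difference 8.11 ± 2.32 points, SE). The pair shares most of its flanks, and 1 peak per cKO library counts for both genes; a further peak of cKO replicate 2 reaches the H2bc12 flank alone. With lists of equal length the differences were 3.68 points for H2bc12 and 3.67 for H2ac12, and with 10 kb flanks 5.87 and 4.42. Over the gene span alone that of H2bc12 was 22.87, all of it from 1 peak of cKO replicate 2, so the genotypes overlapped there.

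A second neighbouring pair, H2ac6 and H2bc4, overlaps with its flanks. Every cKO peak counted for H2ac6 counts for H2bc4 too, so their shared direction is not a separate observation. H2ac6 was covered to 4.77%, 13.2% and 4.77% in the cKO libraries, against 0 in each WT library (limma difference 7.57 ± 2.402 points, SE, adjusted p = 0.535). H2bc4 had 11.5%, 10.8% and 2.73% in the cKO libraries, against 0 in each WT library (difference 8.35 ± 2.43 points, SE). H2bc6, annotated over 37455 bp, had 8.37%, 10.4% and 4.63% in the cKO libraries, against 1.05%, 0 and 0 in the WT libraries (limma difference 7.44 ± 1.82 points, SE, adjusted p = 0.519). Its annotated span is the longest of the 66 genes, and with flanks it takes in every cKO peak counted for H1f4. The difference of H2ac6 was 4.77 points without cKO replicate 2 and 3.18 with lists of equal length. That of H2bc4 was 4.02 over the gene span alone, all from cKO replicate 2, and H2ac6 itself held no peak in any library.

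At the low end of these classes, H2ac7, H2ac18, H2ac22 and H2ac23 among H2A and H2bc7, H2bc8, H2bc22 and H2bc23 among H2B were at 0 in all 6 libraries. H2bc14 had 0, 9.54% and 0 in the cKO libraries, against 4.73%, 0 and 12.5% in the WT libraries. It was among the 3 genes with the largest difference towards WT, -2.56 points, which was 0.814 without WT replicate 3.

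H3 and H4 form the tetramer at the nucleosome centre. Class means were 2.83% in cKO and 0.805% in WT for H3, and 3.68% in cKO and 0.840% in WT for H4, and no gene of either class separated the genotypes. H3c1 had the highest mean of H3, with 4.76%, 0 and 17.5% in the cKO libraries, against 0 in each WT library. H4c14, on chromosome 3, had the highest of H4, with 4.82%, 9.63% and 0 in the cKO libraries, against 4.82%, 10.97% and 4.82% in the WT libraries. H4c14 was thus covered in every WT library, as few histone genes were. H3c4, H3c14 and H4c17 were at 0 in all 6 libraries.

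The testis pair H2ac1 and H2bc1 encodes variants of H2A and H2B that replace the somatic ones in male germ cells. Both genes had H3K9me2 coverage in WT libraries as well. H2bc1 was covered to 6.81%, 0 and 4.79% in the cKO libraries, against 6.29%, 13.6% and 4.79% in the WT libraries. H2ac1 had 10.9%, 0 and 4.77% in the cKO libraries, against 6.26%, 13.6% and 4.77% in the WT libraries. With H4c14, they were the 3 histone genes with coverage above 0 in all WT libraries. Limma differences were -4.37 ± 2.91 points for H2bc1 and -2.99 ± 3.43 for H2ac1 (SE, adjusted p = 0.639 and 0.765). Both turned positive with 10 kb flanks, to 0.821 and 0.225, and leaving out 1 library gave -6.09 to -1.67 for H2bc1 and -5.82 to -0.309 for H2ac1. Over the gene span alone they were -29.9 and 22.99. Without their block, chosen for removal after its values were seen, the chromosome 13 blocks were covered to 4.49% in cKO and 0.654% in WT on average.

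**Figure D3:**
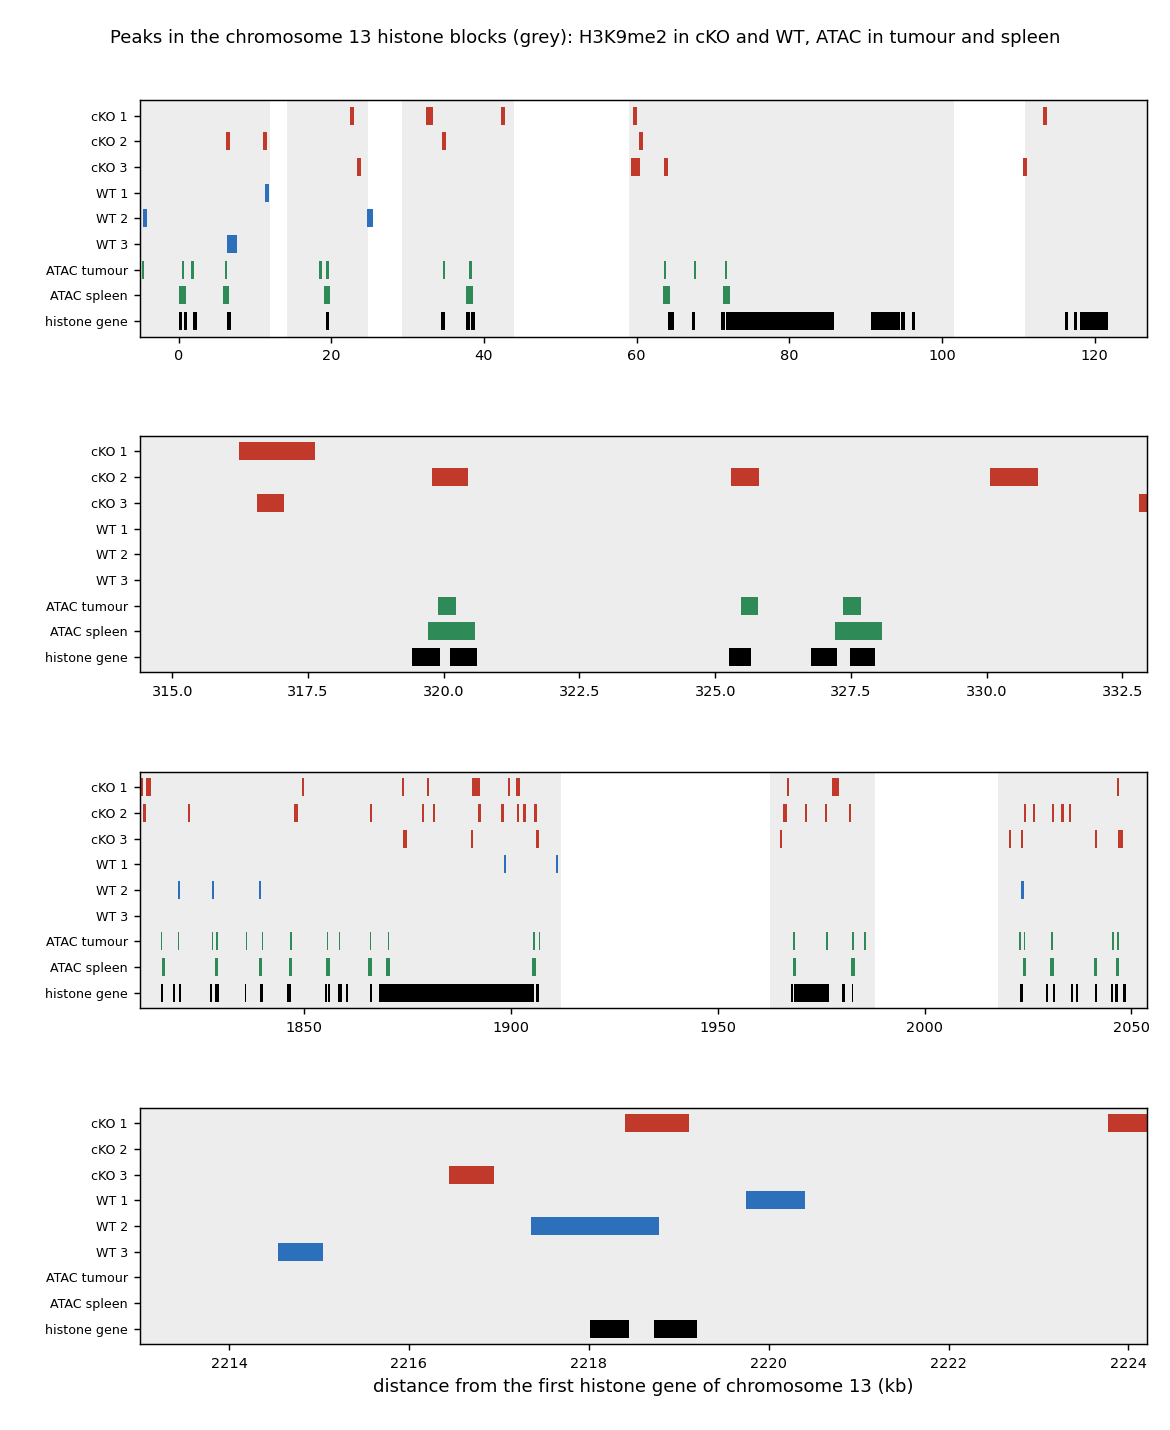
H3K9me2 peaks of the 3 cKO (red) and 3 WT (blue) libraries, ATAC peaks of tumour and spleen (green) and histone genes (black) along the chromosome 13 blocks (grey), by distance in kb from the first histone gene; stretches without histone genes over 100 kb are cut between panels, and H3K9me2 peaks are drawn only inside blocks. The cKO tracks carry more peaks than the WT tracks in most blocks, and the last panel, with H2bc1 and H2ac1, has no ATAC peak.

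The peaks behind these values were few and near the calling limit. The 14 blocks held 23, 35 and 17 H3K9me2 peaks in the cKO libraries, against 6, 11 and 4 in the WT libraries (75 and 21 in all; exact permutation p = 0.1 over n = 3 libraries each). None of the 96 had a score, the authors' tag count per peak, above the median of its own list. Block medians were 5.5, 6 and 5.5 tags in the cKO libraries, against 5.5, 6 and 7 in the WT libraries, while the medians of the whole lists were 9, 8.5 and 8 in cKO and 9.5, 8 and 8 in WT. The calling threshold was 5 tags, and the headers give 6.49 to 7.81 tags as the expectation for a peak-sized region. In all 6 libraries the block median lay under the library's own expectation. A called peak here is therefore weak evidence of the mark. The authors' fold over the surrounding region was higher in the blocks than in the lists, with block medians of 3.52 to 3.87 in cKO and 4.29 to 5.70 in WT and list medians of 2.5 to 2.75. Of the 96 peaks, 65 had the set peak size of 500 bp.

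**Figure D4:**
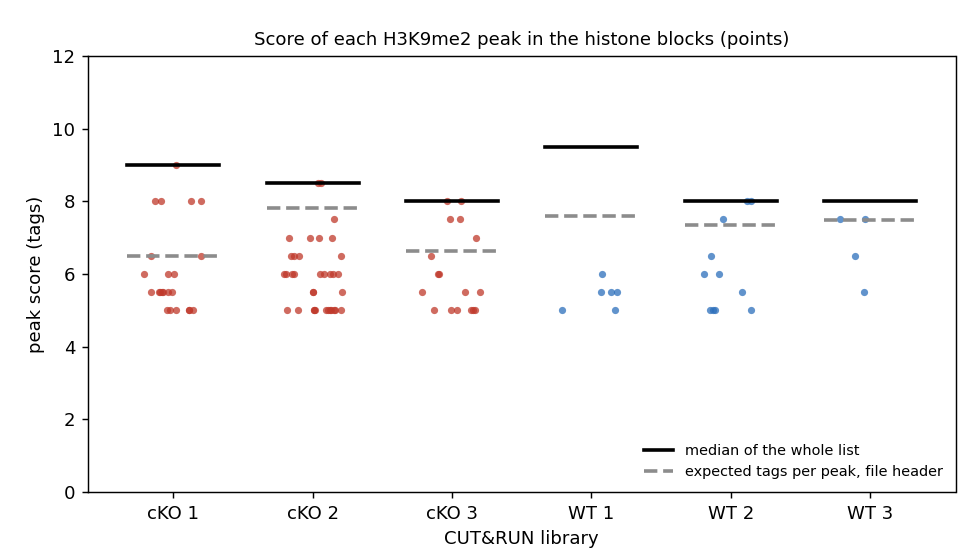
Score in tags (vertical axis) of each H3K9me2 peak in the histone blocks, by library, cKO left of WT, with the median score of the whole list (black line) and the expected tags per peak from the file header (grey dashes). No point lies above its list's median, and cKO libraries hold more points, 17 to 35, than WT libraries, 4 to 11.

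The positions of the peaks differed from library to library. Between cKO libraries, 2 to 5 peaks touched by at least 1 bp (4 of the 23 in cKO replicate 1 and 4 of the 35 in cKO replicate 2, for example), and between WT libraries none did. Between cKO and WT libraries, 0 to 3 of the cKO block peaks touched a WT peak. The WT libraries held only 4 to 11 block peaks, so few could touch. A peak touched the promoter window of 2, 10 and 2 of 61 genes in the cKO libraries, against 1, 6 and 1 in the WT libraries. As shares these were 3.28%, 16.4% and 3.28% in cKO and 1.64%, 9.84% and 1.64% in WT, beside 5.57%, 6.81% and 5.22% in cKO and 3.69%, 6.49% and 5.25% in WT over all promoters. Histone promoters were above all promoters in replicate 2 of each genotype and below them in the other 4 libraries. Tumour ATAC peaks were touched by 1, 10 and 4 of the block peaks in the cKO libraries, against 1, 4 and 3 in the WT libraries. These are 4.35%, 28.6% and 23.5% of the block peaks in cKO and 16.7%, 36.4% and 75% in WT, beside 1.07% to 1.94% of all peaks in the 6 lists. Block peaks thus lay on open chromatin more often than the peaks of their lists in every library, in blocks that are themselves dense in ATAC peaks. The part of open-chromatin tags in these peaks was not tested.

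Histone clusters were dense in ATAC peaks in both tissues, with 1 library each and so no test. The 14 blocks held 45 tumour peaks and 29 spleen peaks, 12.6 and 8.11 per 100 kb, against 1.01 and 0.480 per 100 kb over the genome. In tumour 57 of 66 histone genes had a peak within 5 kb, against 59.9% of all protein-coding genes and 3.89% of the other genes under 1000 bp. In spleen 57 of 66 also did, against 47.1% of all genes and 2.97% of the other short genes. A peak touched the promoter window of 39 of 61 genes in tumour and 27 of 61 in spleen, against 42.5% and 34.3% of all genes with a promoter sequence. Peaks are 322 bp wide in tumour and 869 bp in spleen, and the lists hold 27655 and 13089 peaks, so levels were not compared between tissues.

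Most ATAC peaks lay at the starts of histone genes. Of the 45 tumour peaks, 33 had their centre within 300 bp of a histone start, and 22 of the 29 spleen peaks did. Only starts of the 61 genes with a promoter sequence were used. Peaks at the start of another histone gene, such as H4c14, were not counted. Peaks at the same place recurred, with 27 of the 45 tumour peaks (60%) touching a spleen peak and 27 of the 29 spleen peaks (93.1%) touching a tumour peak. The highest score in tumour, 59.5 tags, was beside H3c13 and H2bc18 on chromosome 3, and the highest in spleen, 95 tags, was beside H1f2 and H3c3 on chromosome 13. H3c15 had a peak within 5 kb in tumour only, and H3c2 in spleen only.

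By class, a tumour peak touched the window of 2 of 6 H1 genes, 12 of 18 H2A genes, 13 of 16 H2B genes, 4 of 10 H3 genes and 8 of 11 H4 genes. In spleen the counts were 1 of 6, 10 of 18, 11 of 16, 1 of 10 and 4 of 11. All 6 H1 genes nevertheless had a peak within 5 kb in both tissues. H2bc12 had H3K9me2 coverage, counted with 5 kb flanks, in the cKO libraries and none in WT. An ATAC peak touched its promoter window in both tissues, with the tumour peak's centre 53 bp from the start and the spleen peak's 28 bp from it.

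Genes without an ATAC peak in either tissue were the testis pair H2ac1 and H2bc1 and a duplicated stretch of chromosome 13 that holds H2bc23, H2ac23, H4c17, H4c18, H2ac24 and H4bc24. The promoter window of H4bc24 is identical to that of H2bc23 printed above, and those of H4c17 and H4c18 match at 99% of bases. In 10 of the 62 windows at least 50% of the 31-base words recur elsewhere among promoter windows. An ATAC peak touched 1 of these 10 in tumour and 1 in spleen, against 39 and 27 of the other 52 windows. Of the 6 genes in the duplicated stretch, H4c18, H2ac24 and H4bc24 had H3K9me2 coverage above 0, all in cKO libraries. No source used here states whether reads that map to several places were kept, and its part in the low counts at these genes was not tested.

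**Figure D5:**
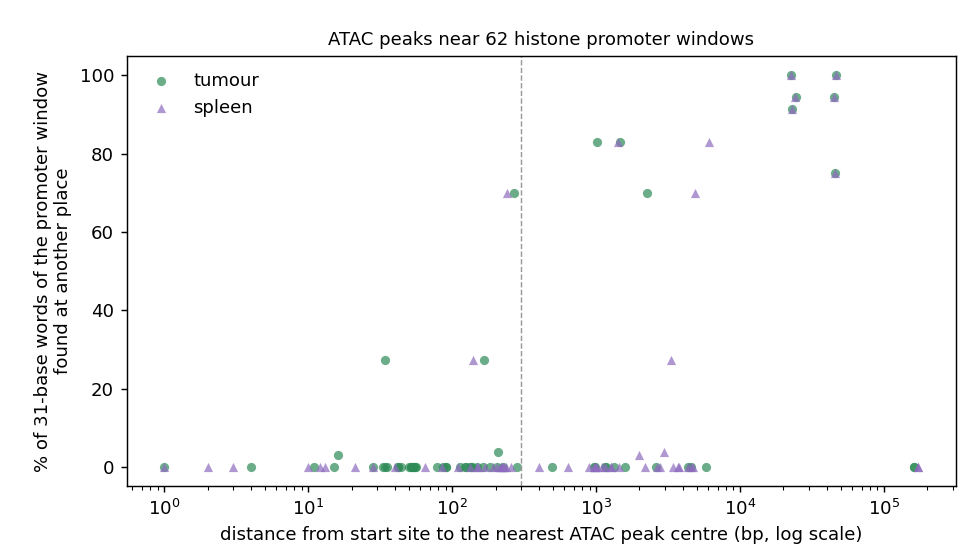
Distance in bp from each histone start to the nearest ATAC peak centre (horizontal log axis, a distance of 0 drawn at 1) against the percent of the promoter window's 31-base words found in other promoter windows, for 62 windows in tumour (circles) and spleen (triangles). Windows of repeated sequence lie to the right, most beyond the dashed line at 300 bp, while most windows of unique sequence have a tumour centre within it.

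Genes that serve the same program elsewhere in the genome were counted for comparison. Of 15 genes of the histone expression machinery, among them Npat, Slbp (the stem-loop binding protein) and Casp8ap2 (a histone locus body protein), 14 were tested and 0 had a limma adjusted p under 0.05, with mean coverage higher in cKO at 8 of 15. Casp8ap2 had 9.26%, 4.62% and 3.40% in the cKO libraries, against 0, 1.37% and 0 in the WT libraries, the single machinery gene whose libraries did not overlap. All 15 had an ATAC peak within 5 kb in tumour and 14 did in spleen. Of 11 replication-independent histone genes, such as H3f3a and H2az1, which are made throughout the cell cycle, 10 were tested, none was called and none separated the genotypes. Of 13 S-phase genes 13 were tested and none was called, and 2 of them, Mcm6 and Mki67, were higher in every cKO library than in any WT library. Over all protein-coding genes 11.4% were, so the 1 of 15 machinery genes and the 2 of 13 S-phase genes are near the background. Median differences over the lists, cKO minus WT, were 0.382, 0.524 and 0.467 points, beside 1.60 over the 66 histone genes and 1.0 over all genes.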

How the data were processed

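H3K9me2 CUT&RUN (3 cKO and 3 WT libraries) and ATAC-seq (1 tumour, 1 spleen) were analysed from the deposited peak lists, grouped by their titles. The build is mm10; HOMER, deepTools, SAMtools 1.11, Picard, Bowtie2 2.4.2 and Trim Galore 0.6.6 are listed, per the submitters' processing notes. HOMER was run on every library by itself, without a control library or pooled replicates, per the file headers. The deposited signal per peak is the tag number scaled to a common library total, per the file headers. The deposited score is in tags of the library itself, and the fold over the surrounding 10000 bp and its p-value are the caller's own, per the file headers. The deposited ATAC lists also hold a focus ratio, a fraction of tags, and the deposited H3K9me2 lists a region size in bp (other unit). No source used here states which filter shortened the H3K9me2 lists. The call for cKO replicate 3 set a lower minimum fold over the surrounding region than the other 5.

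From these, H3K9me2 peaks were merged per library and the covered percent was computed for gene spans with 5 kb on both sides, with RefSeq genes of GRCm38.p6, and for the union of the histone spans (the blocks). All genes with a mean of 1% or more were fitted together in limma 3.58.1 (R 4.3.3, empirical Bayes with a trend), adjusted by Benjamini-Hochberg, threshold 0.05. Blocks were compared by two-sided exact permutation over libraries. ATAC peaks were counted where they overlapped by at least 1 bp. The fit was tried on simulated normal values, with shifts larger than any histone difference of the main analysis. That trial therefore does not show how the fit handles the histone genes. Genome-wide percents use 2722.43 Mb, the last annotated base or peak of each chromosome. Alternatives were other flanks, scaling, scales, list lengths, peak thresholds, filters, a replicate block and leaving out each library. Genes named with values were all H1 genes, the extremes of each core class, genes without overlap between genotypes, the largest differences in each direction and ATAC extremes. The members and lists were chosen with earlier results of these data known. Intervals for single libraries were not computed, and the block peaks score only a few tags each, which limits precision.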

Additional observations from a re-analysis of the deposited data

How the results depend on the processing

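No histone gene was called under any alternative. Of all protein-coding genes 1 was called on the arcsine scale and 12 with no filter, against 0 otherwise. With no filter the median difference was 1.60 points over the 66 histone genes and 1.0 over all protein-coding genes. Over the 43 tested histone genes it was 4.38 points, or 1.02 in units of genome-wide coverage, and over gene spans alone 8.27 (22 tested). Over all tested genes it was 1.26, 0.365 with lists of equal length and 0.181 in units of genome-wide coverage. Tested genes at 0 in every WT library passed the filter on the mean through cKO coverage alone. The medians over tested genes therefore depend on that filter and carry no weight by themselves. Leaving out 1 library at a time gave 2.58 to 3.97 points for all blocks. The chromosome 3 blocks (2.13 at most when a library was left out) reversed to -1.18 over gene spans alone, -0.792 with lists of equal length and -0.0960 without cKO replicate 2. Single genes reversed in 8 of 222 settings over 20 genes, kept their direction in 205 and had none in 9. In those 9 a value was 0 (H3c15, 0 in the main analysis, and H4c14 without WT replicate 2). Reversals were H2ac1 (22.99 over the gene span alone, 0.225 with 10 kb flanks), H2bc1 (0.821 with 10 kb) and H4c14 (0.356 without cKO replicate 3). The others were H2bc14 (0.814 without WT replicate 3), H3c13 (-2.61 with 10 kb) and H2bc18 (-2.61 with 10 kb, -0.221 without cKO replicate 1). Settings that kept the direction included -4.46 for H4c14 and -5.74 for H2bc14, both without cKO replicate 2, and 2.81 for H2bc18 without WT replicate 2. Histone genes with an ATAC peak, 57 in each tissue, numbered 38 in tumour and 36 in spleen over gene spans alone, and 42 in tumour and 57 in spleen with lists of equal length. The cause was not tested. Same-numbered libraries did not deviate together (correlations 0.0756, 0.00499 and 0.0260). With the replicate number as a block limma called 0 histone genes, 6 at an unadjusted p under 0.05. For all blocks the exact paired sign-flip p was 0.25, the smallest that 3 pairs allow. Block peaks of 5 to 9 tags limit what any difference here can show.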

Other observations

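Within chromosome 13, single stretches between the histone blocks differed among themselves. The longest gap, 1477 kb with 36 vomeronasal receptor genes, was covered to 5.15%, 3.18% and 2.81% in the cKO libraries, against 3.19%, 3.55% and 2.33% in the WT libraries. The gap of the transporter genes Slc17a1, Slc17a2, Slc17a3 and Slc17a4 with Trim38, beside the testis pair, was covered to 8.62%, 7.34% and 5.30% in the cKO libraries, against 6.31%, 8.64% and 10.05% in the WT libraries (exact permutation p = 0.4, n = 3 each). The genotypes overlapped in both stretches.

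The block of H2ac12, H2bc12, H4c9, H2ac11 and H2bc11 was covered to 7.55%, 10.96% and 3.48% in the cKO libraries, against 0 in each WT library. The block of H2ac6, H2bc4, H1f6 and H4c3 was covered to 8.43%, 9.53% and 2.0% in the cKO libraries, against 0 in each WT library. These 2 blocks were singled out after their values were seen and carry no test.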
